A study of Mus musculus with 12 samples.

Results

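Mitochondrial fusion and fission genes were followed as 10 transcripts, taken as the rows of both raw count tables named Mfn1, Mfn2, Opa1, Dnm1l, Fis1, Mff, Mief1, Mief2, Oma1 and Yme1l1. All 10 were found once in each table, among 20093 genes listed in both, and all 10 passed the filter on low counts. Bulk liver RNA-seq covered 12 male C57BL/6N mice, 3 in each of 4 groups, and every mouse carried floxed alleles of HuR (gene Elavl1). According to the labels, WT mice received AAV8-Tbg-null and HuRHep-/- mice AAV8-Tbg-Cre, a virus that puts Cre under a hepatocyte promoter, so that other liver cells keep the gene. The mice were 4 to 6 months old and were fed chow, or a high-fat, cholesterol and fructose (HFCF) diet for 16 weeks with 40 kcal% fat, 2% cholesterol and 20 kcal% fructose. The methods of the study describe a different model, a cross with albumin-Cre mice studied at a younger age, and the counts do not show which description holds.

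Mitochondria in hepatocytes form a network that is joined by fusion and cut by fission. The mitofusins Mfn1 and Mfn2 are GTPases that tether and fuse the outer membrane. The GTPase Opa1 acts in fusion of the inner membrane, and the proteases Oma1 and Yme1l1 cut Opa1. Dnm1l encodes Drp1, the cytosolic dynamin that constricts the organelle, and Mff, Fis1, Mief1 (MiD51) and Mief2 (MiD49) are outer membrane proteins that act as its receptors. HuR binds U-rich and AU-rich stretches of mRNAs, mostly in 3′ untranslated regions, and can stabilise the transcript or promote its translation.

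Each library held 30071731 to 35949203 counted reads, and single members received between 337 and 5125 reads. Levels are given as CPM, the counts of a gene per 1000000 counts of its library, scaled between libraries with TMM factors. Differences are log2 fold changes with their standard errors (SE), tested with limma over all genes with Benjamini-Hochberg adjustment, and a gene is said to have changed where the adjusted p was 0.05 or lower. Elavl1 itself stood at 29.3 to 31 CPM in chow WT livers and at 38.8 to 42.8 CPM in chow livers labelled HuRHep-/-, and at 23.9 to 27.0 and 32.2 to 34.2 CPM under HFCF. The targeted transcript was thus higher where it should be lower (log2 fold change 0.41 in chow, adjusted p = 0.0219, and 0.38 in HFCF, adjusted p = 0.0327), which goes against the label. That call was kept in 2 of 6 chow fits and 1 of 6 HFCF fits that left out 1 library, with Elavl1 higher in all 12. These counts cover the whole gene, so that the deleted part was not measured apart. Genotype directions below follow the labels. Hepatocyte transcripts dominated the samples, with 7 markers summing to 59221 to 112709 CPM, and none of the 7 was at 0. Leaving out WT replicate 1 or 3 or HuRHep-/- replicate 1 or 2 took the number of genes changed by genotype in chow from 570 to between 9 and 136, and in HFCF WT replicate 1 or any 1 HuRHep-/- library took it from 978 to between 28 and 116. The log2 fold changes of Mief1 and Mief2 by genotype given below kept their sign without any 1 library.

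The 10 genes lie on 8 chromosomes of GRCm38, with Mfn2 on chromosome 4 (147873599 to 147904704, minus strand), Mfn1 on chromosome 3 (32529465 to 32579239, plus strand), Dnm1l on chromosome 16 (16312230 to 16358959, minus strand), Mief1 on chromosome 15 (80234018 to 80253371, plus strand) and Mief2 on chromosome 11 (60728398 to 60732951, plus strand).

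The promoters of the 2 mitofusins, which differed in opposite directions with diet, and of Mief1 and Mief2, which were both lower in the livers labelled HuRHep-/-, are given as sequences. The 300 bases run from 250 before to 50 after a RefSeq start site on GRCm38.p6, on the strand of the gene, and for Mfn2 the window of 1 of its 3 listed start sites is given. All 15 windows of the 10 members were searched on both strands for the core of the ETS factor motif (CCGGAAG), a core of the NRF1 motif (CGCATGCG) and the ERR half-site (AAGGTCA). These motifs were chosen after the values were known, and capitals mark the matches.
Mfn1, chr3:32529232-32529531, plus strand: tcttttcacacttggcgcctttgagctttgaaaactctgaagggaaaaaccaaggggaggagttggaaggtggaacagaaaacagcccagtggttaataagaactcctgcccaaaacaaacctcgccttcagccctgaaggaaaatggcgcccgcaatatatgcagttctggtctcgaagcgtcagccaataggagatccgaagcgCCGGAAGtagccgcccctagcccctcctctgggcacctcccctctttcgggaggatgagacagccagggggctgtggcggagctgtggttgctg
Mfn2, chr4:147904649-147904948, minus strand: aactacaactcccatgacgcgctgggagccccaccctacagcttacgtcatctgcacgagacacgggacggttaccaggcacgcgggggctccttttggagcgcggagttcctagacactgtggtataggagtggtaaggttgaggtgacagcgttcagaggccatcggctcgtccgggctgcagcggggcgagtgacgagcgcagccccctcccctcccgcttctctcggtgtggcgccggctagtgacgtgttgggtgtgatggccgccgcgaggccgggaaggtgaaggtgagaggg
Mief1, chr15:80233830-80234129, plus strand: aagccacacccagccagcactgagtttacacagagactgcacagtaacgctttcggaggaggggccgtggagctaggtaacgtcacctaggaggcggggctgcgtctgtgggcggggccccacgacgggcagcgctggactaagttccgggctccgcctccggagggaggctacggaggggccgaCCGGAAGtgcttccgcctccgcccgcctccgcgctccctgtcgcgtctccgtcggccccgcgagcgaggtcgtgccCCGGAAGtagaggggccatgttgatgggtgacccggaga
Mief2, chr11:60728148-60728447, plus strand: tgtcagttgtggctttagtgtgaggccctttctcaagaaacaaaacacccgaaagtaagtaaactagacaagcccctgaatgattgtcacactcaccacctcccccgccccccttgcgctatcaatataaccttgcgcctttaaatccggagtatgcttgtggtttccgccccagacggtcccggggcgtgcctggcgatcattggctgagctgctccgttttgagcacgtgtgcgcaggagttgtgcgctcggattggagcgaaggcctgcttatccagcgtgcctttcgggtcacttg
The ETS core was present in 6 of the 15 windows, from the 5 genes Mfn1, Dnm1l, Fis1, Mief1 and Yme1l1. Dnm1l also had a window without it. Of 32851 promoter windows, 8.86% held the core. Windows of 1 gene can overlap, and the windows of all genes were not matched for GC content, so enrichment was not tested. Opa1 held the NRF1 core (1.87% of all windows), no member held the ERR half-site (4.72%), and no 2 matches overlapped. Of the pair that was lower in the livers labelled HuRHep-/-, Mief1 thus holds the ETS core and Mief2 does not, and of the mitofusins Mfn1 holds it and Mfn2 does not in any of its 3 windows.

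Compared per kilobase of exon (RPKM), Fis1 was the most abundant member in all 4 groups and Mfn2 was next, with ranges that did not overlap with each other or with the next member. In chow WT livers Fis1 reached 41.7 ± 4.29 RPKM (SD, n = 3) and Mfn2 18.9 ± 1.84 RPKM. Mief2, Mfn1, Yme1l1 and Opa1 followed between 8.84 and 7.80 RPKM, each with a range that overlapped its neighbour's. Oma1 (5.66 ± 0.80 RPKM) and Dnm1l (5.47 ± 0.17 RPKM) overlapped as well. Mief1 (3.77 ± 0.097 RPKM) and Mff (3.14 ± 0.20 RPKM) were lowest and stood apart. Of the 14512 tested genes with a length, 58.6% lay below Mff and 92.8% below Fis1 in these livers. The order below Mfn2 differed between groups: Mfn1 ranked 4 in chow WT livers and 7 in both HFCF groups, and Mief1 ranked below Mff in the livers labelled HuRHep-/- of either diet, with ranges that overlapped in chow and not in HFCF. With the longest transcript as the length, Mief1 and not Mff was lowest in chow WT livers (5.93 against 7.83 RPKM). Yme1l1 then stood at 14.2 RPKM, above Mfn1 (11.8), Opa1 (9.85) and Mief2 (9.52). The order below Mfn2 thus depends on the length used.

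**Figure D1:**
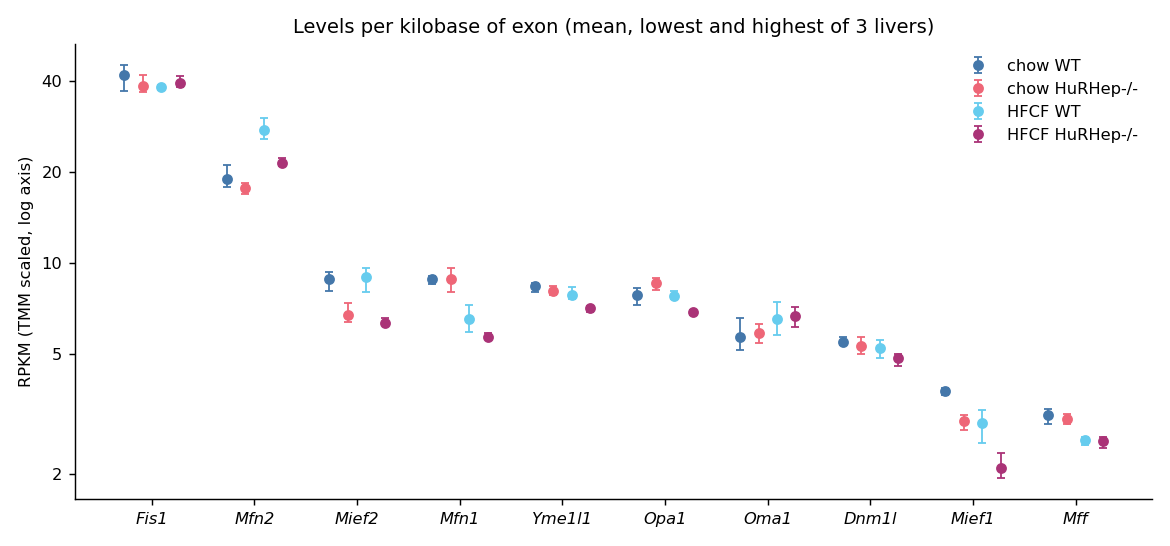
Level of each member per kilobase of summed exon length, as RPKM scaled with TMM on a log axis, in 4 groups of 3 livers. Points are means and bars run from the lowest to the highest liver. Fis1 and Mfn2 lie above the other 8 members in every group.

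How the livers labelled HuRHep-/- differed from WT livers was asked first, within each diet. In chow, the Drp1 receptors Mief1 and Mief2 were the 2 of 10 members whose groups did not overlap, beside 28.2% of all genes. Both were lower in the livers labelled HuRHep-/-, and neither passed the threshold. Under HFCF, Mief2 and the mitofusin Mfn2 fell. Over both diets together Mief1, Mief2 and Mfn2 fell and no member rose. The main fission GTPase Dnm1l passed in none of these comparisons.

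Mief2 stood at 25.3, 24.9 and 21.9 CPM in the 3 chow WT livers and at 17.3, 17.6 and 20.0 CPM in those labelled HuRHep-/-. Under HFCF it stood at 25.0, 26.1 and 21.8 CPM against 16.9, 16.9 and 17.8 CPM. All 6 livers labelled HuRHep-/- were below all 6 WT livers, with no overlap in either diet. The log2 fold change was -0.39 in chow (SE 0.092, adjusted p = 0.0575) and -0.51 in HFCF (SE 0.088, adjusted p = 0.0281). Averaged over both diets it was -0.44 (SE 0.063, adjusted p = 0.000942), and the exact permutation test within diets gave p = 0.005, the smallest that 400 relabelings allow.

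Mief1, the partner of Mief2 with a related role in recruiting Drp1, was at 30.8, 31.1 and 29.7 CPM in chow WT livers and at 22.6, 24.9 and 25.5 CPM in those labelled HuRHep-/-. The HFCF livers gave 25.0, 26.3 and 20.5 CPM for WT and 16.3, 19.0 and 15.7 CPM for the label HuRHep-/-. Again the 2 groups of a diet did not overlap. The log2 fold change came to -0.32 (SE 0.073, adjusted p = 0.0513) in chow and -0.50 (SE 0.12, adjusted p = 0.0538) in HFCF, both just short of the threshold. In HFCF it passed with voom weights and in the fit on 12 libraries (adjusted p = 0.0133). Over both diets Mief1 fell by 0.41 on the log2 scale (SE 0.072, adjusted p = 0.00310, exact permutation p = 0.005). Of the words of 31 bases in its longest transcript, 3.75% also occur in other genes, chiefly the overlapping AC140267.1. That gene was not listed in both count tables, and how reads from shared bases were assigned is not known.

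Mfn2 was at 92.9, 109 and 92.8 CPM in chow WT livers and at 92.6, 87.8 and 95.6 CPM in those labelled HuRHep-/-, groups that overlapped. Under HFCF the WT livers held 133, 156 and 140 CPM and the livers labelled HuRHep-/- 115, 109 and 109 CPM, without overlap. The genotype difference was -0.09 on the log2 scale in chow (SE 0.082, 95% confidence interval -0.28 to 0.10, adjusted p = 0.561) and -0.38 in HFCF (SE 0.075, interval -0.55 to -0.20, adjusted p = 0.0362; with library totals -0.23, adjusted p = 0.0589). Over both diets it was -0.23 (SE 0.056, adjusted p = 0.0167), and with library totals in place of TMM factors that value was -0.12 with an adjusted p of 0.146.

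The HFCF calls of Mief2 and Mfn2 were each lost when WT replicate 1 or any 1 of the 3 livers labelled HuRHep-/- was left out, with adjusted p up to 0.116 for Mief2 and 0.118 for Mfn2. Over all 6 fits that left out 1 library the log2 fold changes stayed between -0.58 and -0.46 for Mief2 and between -0.42 and -0.31 for Mfn2. The 3 calls over both diets held without any 1 of the 12 libraries.

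Dnm1l was at 29.5, 27.8 and 28.1 CPM in chow WT livers and 27.1, 25.9 and 29.6 CPM in those labelled HuRHep-/-, and at 27.8, 25.1 and 28.8 against 26.0, 25.6 and 23.6 CPM under HFCF. The groups overlapped in both diets. Its log2 fold change was -0.04 in chow (interval -0.21 to 0.12), -0.13 in HFCF (interval -0.32 to 0.05) and -0.08 over both diets (interval -0.20 to 0.03, adjusted p = 0.283). Of its words of 31 bases, 8.03% also occur in other genes, chiefly Gm13719.

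The inner membrane GTPase Opa1 was at 64.8, 57.2 and 62.2 CPM in chow WT livers and 67.9, 64.2 and 70.0 CPM in chow livers labelled HuRHep-/-. Under HFCF the order was the other way, with 63.7, 60.7 and 59.6 CPM in WT livers and 53.0, 55.1 and 53.9 CPM in those labelled HuRHep-/-, which did not overlap. The log2 fold change was 0.14 in chow (SE 0.068, adjusted p = 0.254) and -0.20 in HFCF (SE 0.059, adjusted p = 0.0817), and neither passed. The proteases that process Opa1 did not pass either, with log2 fold changes of 0.06 and 0.03 for Oma1 and -0.05 and -0.16 for Yme1l1 in chow and HFCF. Fis1 (-0.10 and 0.04), Mff (-0.04 and -0.03) and Mfn1 (0.01 and -0.20) completed the list, with adjusted p of at least 0.181.

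Counted over the members, 0 of 10 passed in chow beside 4.21% of 13526 tested genes. In HFCF 2 of 10 passed beside 6.84% of 14295 genes, both lower beside 3.95% called lower among all genes. Over both diets 3 of 10 passed beside 19.2% of 14535 genes, again all lower beside 10.2% called lower. The median log2 fold change of the members was -0.05 in chow, -0.18 in HFCF and -0.09 over both diets, where all tested genes had medians of 0.01, -0.00 and 0.02. Groups of livers did not overlap for 2 of 10 members in chow and 6 of 10 in HFCF, beside 28.2% and 35.9% of all genes. With library totals in place of TMM factors the medians of all genes moved to 0.08 in chow, 0.15 in HFCF and 0.13 over both diets, and changes are reported relative to the TMM centre. With TMM factors no member passed with the fold change of 1.5 that the study asked of a DEG in any genotype comparison.

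Other transcripts moved with genotype as well. Hepatocyte markers summed to 91414 to 112709 CPM in chow WT and 74742 to 81572 CPM in chow livers labelled HuRHep-/-. Under HFCF the sums were 64534 to 70532 and 59221 to 63071 CPM, so that neither diet showed overlap. Alb made up most of these sums, with means of 74081 CPM in chow WT and 52663 CPM in chow HuRHep-/- livers. The log2 fold changes of the 7 markers ran from -0.48 to -0.014 in chow, where 0 passed. In HFCF they ran from -0.49 to -0.0073, where 1 passed. The 11 Kupffer cell and macrophage markers summed to 223 to 291 and 293 to 438 CPM in chow and to 321 to 543 and 509 to 761 CPM under HFCF. The 6 cholangiocyte markers reached 133 to 242 CPM in HFCF livers labelled HuRHep-/- and 38.6 to 87.4 CPM in HFCF WT livers. In chow they overlapped at 47.1 to 77.3 and 35.1 to 79.0 CPM. Spp1 made up most of this sum, with means of 158 CPM in HFCF HuRHep-/- and 61.4 CPM in HFCF WT livers. Of the markers, 6 of 11 for macrophages and 2 of 5 tested for cholangiocytes rose over both diets, and 1 of 7 for hepatocytes fell. Among all 14535 genes, 1302 rose and 1484 fell in that comparison. None of 9 endothelial, 9 stellate, 9 lymphocyte or 2 tested neutrophil markers passed there. None of these markers was at 0 in any group except Camp of the neutrophils, which had no count in either WT group. In bulk liver, fewer cells of a type and less RNA per cell cannot be told apart, and the part of cell composition in the falls of Mief1, Mief2 and Mfn2 was not tested.

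**Figure D2:**
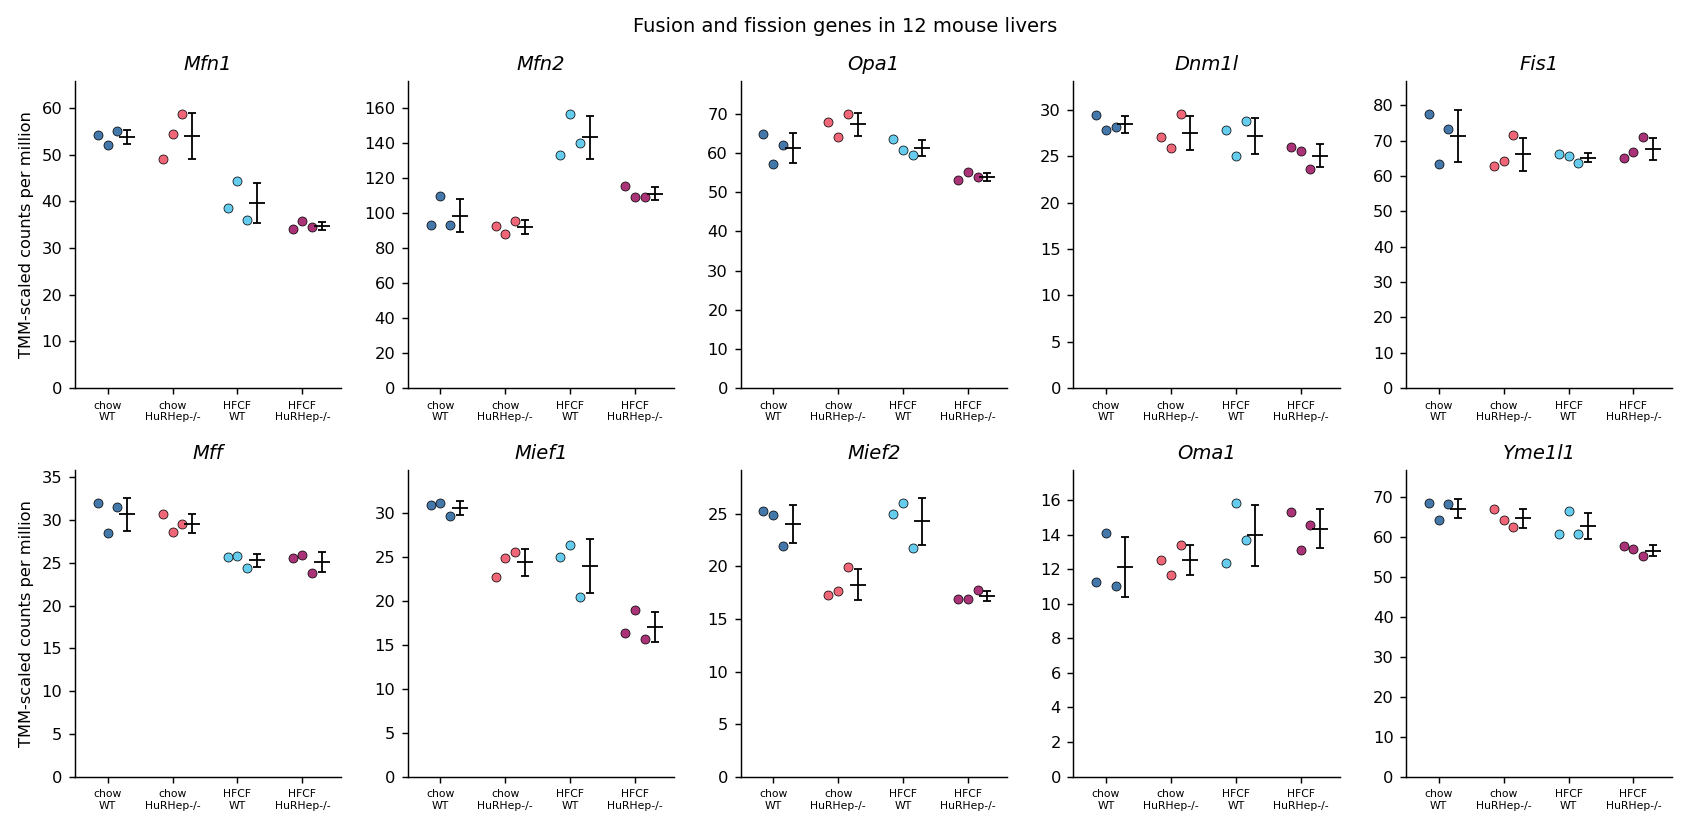
TMM-scaled CPM of each member in the 12 livers, 1 panel per gene with an axis from 0. Points are single livers, and the bar beside them is the mean with its SD (n = 3). Mief1 and Mief2 are lower in the livers labelled HuRHep-/- in both diets, Mfn2 is highest in HFCF WT livers at 133 to 156 CPM, and Dnm1l stays between 23.6 and 29.6 CPM.

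The diet comparison asked how the same transcripts differed between HFCF and chow livers of 1 label. Each diet has a count table of its own, and diet and table cannot be told apart. The 2 mitofusins differed in opposite directions: Mfn2 rose and Mfn1 fell with HFCF in both genotypes. The Drp1 receptors Mff and Mief1 fell in both, and Opa1 and Yme1l1 fell in the livers labelled HuRHep-/-, although the estimate for Yme1l1 turned to 0.04 with library totals in place of TMM factors and its call was lost with upper-quartile factors (-0.11, adjusted p = 0.117).

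Mfn1 stood at 54.2, 52.1 and 55.1 CPM in chow WT livers and at 38.5, 44.4 and 36.1 CPM in HFCF WT livers. In the livers labelled HuRHep-/- it stood at 49.0, 54.4 and 58.8 CPM in chow and 34.2, 35.8 and 34.5 CPM in HFCF. All 6 HFCF livers were below all 6 chow livers. The log2 fold change was -0.44 in WT (SE 0.084, adjusted p = 0.00391) and -0.63 in HuRHep-/- (SE 0.084, adjusted p = 0.000396), where Mfn1 was, with TMM factors, the only member to pass the study's DEG criteria in any comparison. With library totals the values were -0.26 and -0.40, both still called, and with these or with upper-quartile factors Mfn1 missed the fold change of 1.5 while Mfn2 by diet in WT passed it.

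Mfn2 ran from 109 to 156 CPM in the 6 HFCF livers and from 87.8 to 109 CPM in the 6 chow livers, and within each label the diets did not overlap. It rose by 0.54 in WT (SE 0.080, adjusted p = 0.00120), or 1.45-fold, and by 0.27 in the livers labelled HuRHep-/- (SE 0.080, adjusted p = 0.0195), or 1.21-fold. With library totals these became 0.72 and 0.50. The second call was lost without chow HuRHep-/- replicate 2 (log2 fold change 0.24, adjusted p = 0.0674) or without HFCF HuRHep-/- replicate 1 (0.25, adjusted p = 0.0694).

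Mief1 was lower in HFCF by 0.36 in WT (SE 0.10, adjusted p = 0.0244) and by 0.52 in HuRHep-/- (SE 0.10, adjusted p = 0.00252), so that its 4 group means ran from 30.5 ± 0.79 CPM in chow WT to 17.0 ± 1.75 CPM in HFCF livers labelled HuRHep-/- (SD, n = 3). Its partner Mief2 showed no such diet difference, with log2 fold changes of 0.02 (interval -0.18 to 0.21) and -0.09 (interval -0.28 to 0.11). Mff, a receptor that recruits Drp1 independently of this pair, went from 32.0, 28.5 and 31.5 CPM to 25.7, 25.8 and 24.4 CPM in WT livers. It fell by 0.28 there (SE 0.067, adjusted p = 0.0123) and by 0.24 in the livers labelled HuRHep-/- (SE 0.067, adjusted p = 0.0156). The WT call of Mief1 was lost without any 1 of the chow WT livers or without HFCF WT replicate 3 (adjusted p up to 0.0893), and that of Mff without chow WT replicate 1 (adjusted p = 0.0528). The call of Mff in HuRHep-/- was lost without chow replicate 1 or HFCF replicate 3 of that label (adjusted p up to 0.0583). With library totals the WT calls of Mief1 and Mff and the HuRHep-/- call of Mff were lost, with log2 fold changes of -0.18, -0.10 and -0.01, and upper-quartile factors ended the last as well (-0.16, adjusted p = 0.0693).

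Opa1 in the livers labelled HuRHep-/- fell by 0.32 (SE 0.061, adjusted p = 0.00243). With library totals its value was -0.09 and the call was lost (adjusted p = 0.235). In WT livers its log2 fold change was -0.00 (interval -0.13 to 0.13), and with library totals it was 0.18 and passed (adjusted p = 0.0388). Yme1l1, the i-AAA protease, fell by 0.19 in the livers labelled HuRHep-/- (SE 0.058, adjusted p = 0.0214) and differed by -0.10 in WT (adjusted p = 0.231). That Yme1l1 call did not hold without HuRHep-/- replicate 1 or 2 of chow or replicate 2 or 3 of HFCF, with adjusted p up to 0.0695. Dnm1l (-0.07 and -0.13), Fis1 (-0.13 and 0.03) and Oma1 (0.20 and 0.19) did not pass in WT or HuRHep-/-.

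In WT livers 4 of 10 members changed with diet beside 24.2% of all genes, 1 higher beside 11.3% and 3 lower beside 12.8%. In the livers labelled HuRHep-/- 6 of 10 changed beside 38.9%, 1 higher beside 19.7% and 5 lower beside 19.1%. With the fold change of at least 1.5 added, 0 and 1 members passed with TMM factors, beside 9.96% and 19.6% of all genes. Livers of the diets did not overlap for 4 and 6 members, beside 37.6% and 54.6% of all genes, so the count of changed members was read against a diet difference that reached much of the transcriptome. With library totals the medians of all genes moved to 0.19 in WT and 0.23 in HuRHep-/-. Hepatocyte markers summed lower under HFCF in both labels, and stellate cell markers summed to 295 to 545 CPM in HFCF WT and 520 to 614 CPM in HFCF HuRHep-/- livers against 202 to 302 CPM in chow. All 9 stellate markers and 5 of 5 tested cholangiocyte markers rose with diet in the livers labelled HuRHep-/-, beside 7 of 11 macrophage markers. There 2 of 9 endothelial and 3 of 9 lymphocyte markers also rose, and 5 of 7 hepatocyte markers fell. No tested neutrophil marker passed by diet in either label, and no endothelial or lymphocyte marker in WT. In WT livers 3 of 9 stellate, 4 of 11 macrophage and 0 of 5 tested cholangiocyte markers rose with diet and 4 of 7 hepatocyte markers fell. Their part in the member differences was not tested.

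**Figure D3:**
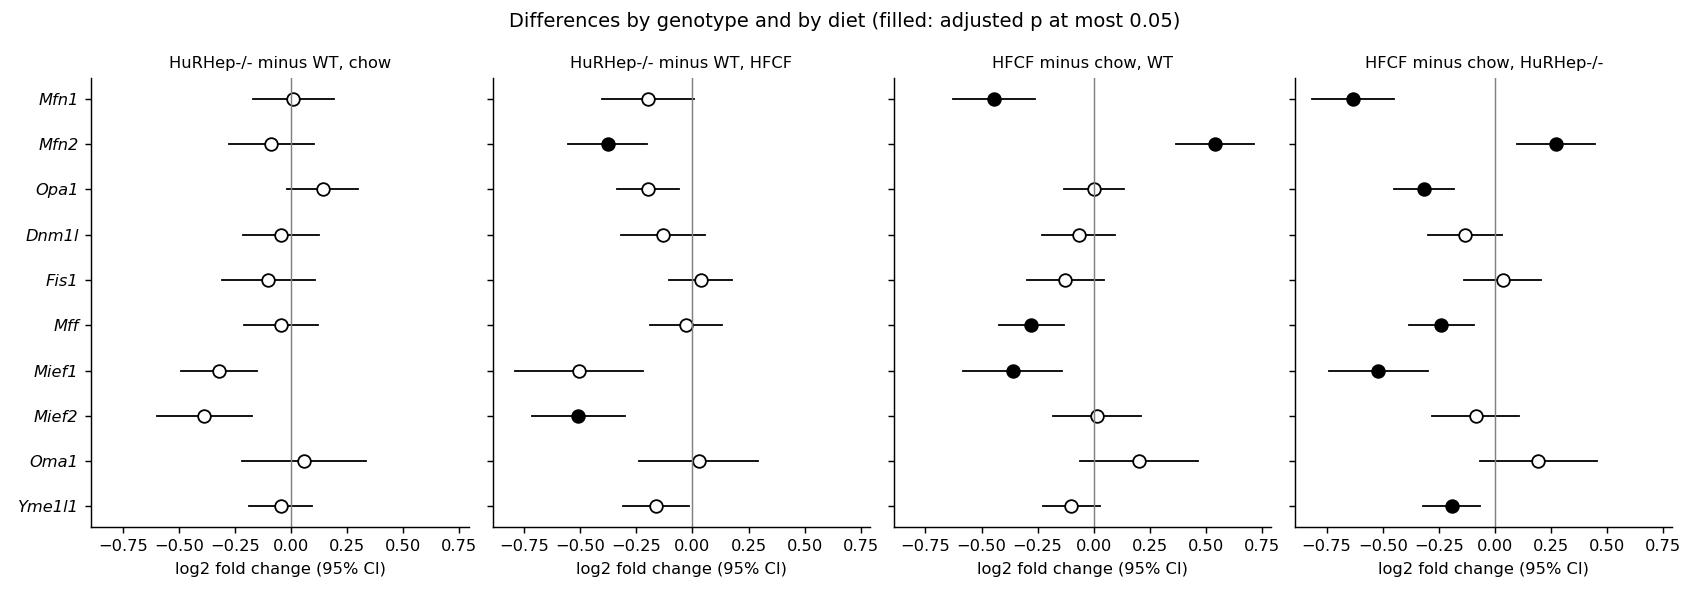
Log2 fold change of each member with its 95% confidence interval in 4 comparisons, 2 by genotype and 2 by diet. Filled points passed the adjusted threshold of 0.05. Mfn1 and Mfn2 lie on opposite sides of 0 in both diet panels, and Mief1 and Mief2 lie below 0 in both genotype panels.

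Whether the genotype difference itself changed with diet was tested as an interaction over the 12 libraries. With limma none of the 10 members passed, beside 0.0% of 14535 genes. At an unadjusted p under 0.05 there were 2083 genes and 2 members. These were Opa1, with a difference of -0.32 (SE 0.087, interval -0.51 to -0.13, adjusted p = 0.183), and Mfn2, with -0.27 (SE 0.11, interval -0.52 to -0.02, adjusted p = 0.312). Among all genes voom weights and a fit without the filter called 1 each, and library totals 11. A pass for Mfn2 in HFCF and none in chow is therefore not shown to be a difference between the diets.

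Ratios between members within a liver do not depend on library scaling. Mfn1 stood to Mfn2 at 0.40 to 0.53 per unit length in the 6 chow livers and at 0.22 to 0.28 in the 6 HFCF livers, with no overlap. On the log2 scale the difference between diets was -0.99 in WT and -0.90 in HuRHep-/-, and between labels 0.10 in chow and 0.18 in HFCF. The labels overlapped in chow and were apart in HFCF, at 0.219 to 0.246 in WT and 0.252 to 0.279 in HuRHep-/- livers. Mief1 stood to Mief2 at 0.41 to 0.47 in chow and 0.30 to 0.38 in HFCF livers, again apart by diet, while the difference between labels was 0.06 in chow and 0.0049 in HFCF. Both labels of a diet overlapped in this ratio. Oma1 to Yme1l1 ranged from 0.60 to 0.82 in chow WT and from 0.68 to 0.80 in chow HuRHep-/- livers. Under HFCF it ranged from 0.76 to 0.89 in WT and from 0.86 to 0.99 in HuRHep-/- livers. The diets overlapped in WT livers and not in those labelled HuRHep-/-. The summed fusion GTPases to Dnm1l ranged from 6.17 to 6.90 in chow and 6.88 to 9.36 in HFCF livers, with the highest value in HFCF WT replicate 2. These ratios are descriptions with no test.

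**Figure D4:**
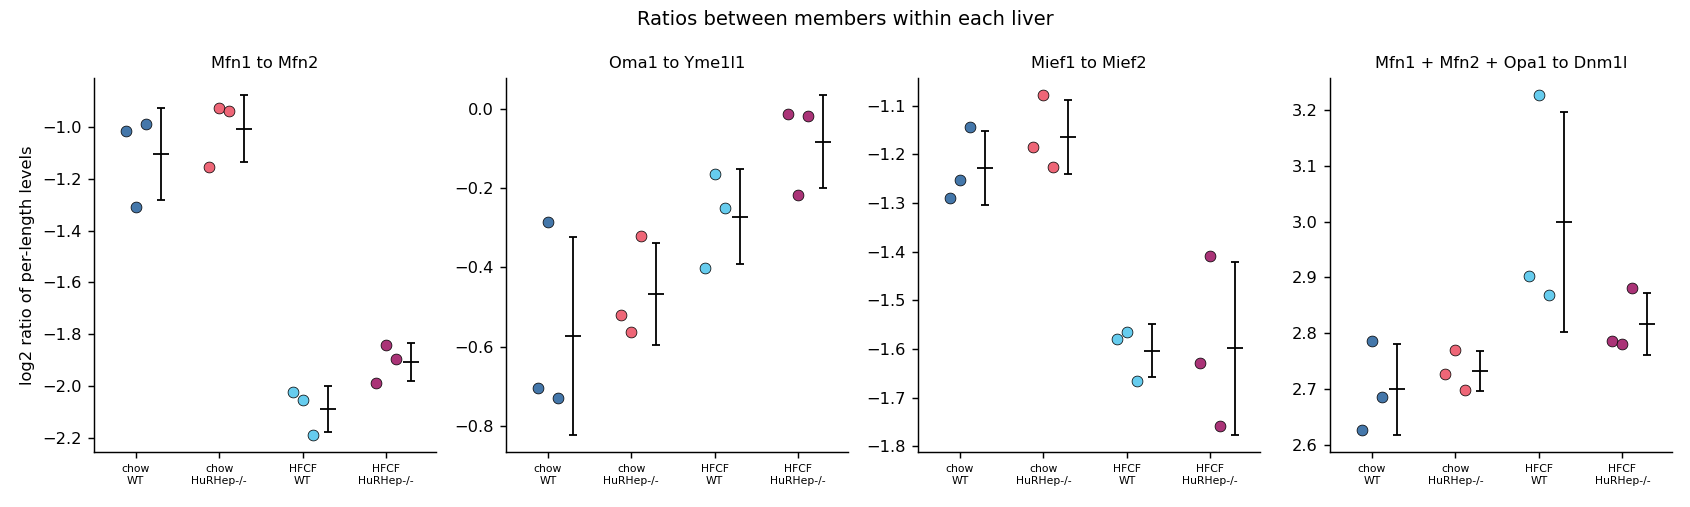
Log2 ratios of per-length levels within each liver for 4 pairs or sums of members, with a separate axis for each panel. Points are single livers and bars are the mean with its SD (n = 3). The Mfn1 to Mfn2 and Mief1 to Mief2 ratios separate the 6 chow from the 6 HFCF livers.

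The members varied to different extents over the 12 livers. Fis1 and Dnm1l had an SD of 0.097 and 0.10 on the log2 scale, smaller than in all but 4.78% and 5.39% of tested genes, and Yme1l1 followed at 0.11. Mief1 (0.34), Mfn1 (0.30), Mfn2 (0.27) and Mief2 (0.25) varied most. Of the 45 pairs of members, Mff and Yme1l1 had the most similar profile, with a root mean square difference of 0.083 between centred log2 values, and Mfn1 and Mfn2 the least similar at 0.49. Among all tested genes the profiles closest to Mfn2 were those of Smarcc2 (0.080), Glyctk (0.095) and Gm21685 (0.096), beside a median of 0.38 over 14534 genes. Closest to Dnm1l were Itfg1 (0.043), Capn7 (0.052) and Lrrc40 (0.052), beside a median of 0.27. These distances share library, diet and depth and carry no test.

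The lists of related genes that follow stand beside 4.21% of all genes changed by genotype in chow, 6.84% in HFCF and 19.2% over both diets, and 24.2% and 38.9% changed by diet in WT and HuRHep-/-. Among 17 tested other fission and fusion factors, 1 rose in chow, 1 rose in HFCF, and 2 rose and 1 fell over both diets in the livers labelled HuRHep-/-. Fam73a, which encodes the fusion factor mitoguardin 1, rose by 1.75 in chow (SE 0.24, adjusted p = 0.0131) and by 1.42 over both diets (SE 0.20, adjusted p = 0.000967) at a low level, from 0.49 to 0.69 CPM in chow WT to 1.63 to 2.26 CPM in chow livers labelled HuRHep-/-. Fundc2 rose by 0.38 in HFCF (adjusted p = 0.0479) and March5, an outer membrane ubiquitin ligase that acts on Drp1 and its receptors, fell by 0.16 over both diets (adjusted p = 0.0170). With diet, 3 rose and 4 fell in WT, beside 24.2% of all genes changed, and 4 rose and 6 fell in HuRHep-/-, beside 38.9%. Fam73b, the paralogue mitoguardin 2, rose by 0.93 with diet in WT (SE 0.097, adjusted p = 0.000240), and Slc25a46, an outer membrane protein of this pathway, fell by 0.38 and 0.71 in WT and HuRHep-/-.

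Of 15 inner membrane proteases and prohibitins, the neighbours of Oma1 and Yme1l1, 2 rose in chow and none passed in HFCF. Those 2 were Pmpca (0.33, adjusted p = 0.0288), a subunit of the matrix processing peptidase, and Htra2 (0.40, adjusted p = 0.0425), a protease of the intermembrane space. Over both diets 3 rose and 2 fell, with diet 2 rose and 2 fell in WT, and 2 rose and 4 fell in HuRHep-/-. Of 12 cristae genes none passed in chow and 2 fell in HFCF, Chchd3 (Mic19, a MICOS subunit, -0.29, adjusted p = 0.0290) and Mtx3 (-0.54, adjusted p = 0.0335). Over both diets 3 fell, Chchd3, Apool and Chchd6 (the MICOS subunit Mic25, -0.46, adjusted p = 0.0465). Chchd6 rose with diet by 0.94 in WT and 1.06 in HuRHep-/- (adjusted p = 0.00800 and 0.00259), and the cristae genes that passed were 1 higher and 1 lower in WT and 2 higher and 4 lower in HuRHep-/-.

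Mitophagy genes, which remove mitochondria after fission, gave 1 of 20 higher in chow and 2 of 20 lower in HFCF. The receptor Bnip3 fell by 0.74 in HFCF (SE 0.11, adjusted p = 0.0189), from 227 to 251 CPM in WT livers to 132 to 169 CPM in those labelled HuRHep-/-, and the adaptor Nbr1 fell by 0.42 (adjusted p = 0.0410). Over both diets 7 of 20 fell, beside 10.2% of all genes, and 1 rose, the initiating kinase Ulk1 (0.37, adjusted p = 0.00672). With diet 5 fell and none rose in WT, and 9 fell and 1 rose in HuRHep-/-, beside 12.8% and 19.1% of all genes lower, with Ulk1 lower by 0.63 and 0.88. Of 14 genes for enzymes that modify Drp1, none passed in chow and Mapk3 (Erk1) rose by 0.43 in HFCF (adjusted p = 0.0434). Over both diets 3 rose and 1 fell, and with diet 1 rose and 1 fell in WT and 2 rose and 6 fell in HuRHep-/-, among them Prkaa1, a catalytic subunit of AMPK, at -0.53 (adjusted p = 0.00138). Of 6 transport genes none passed by genotype, and with diet 1 fell in WT and 2 in HuRHep-/-. These were Rhot1 (Miro1), lower by 0.32 and 0.34, and in HuRHep-/- Rhot2 (Miro2, -0.19, adjusted p = 0.0455).

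Genes of mitochondrial biogenesis and mtDNA maintenance gave 1 of 14 lower in chow, Peo1 (the mtDNA helicase Twinkle, -0.39, adjusted p = 0.0411), and 2 of 14 lower in HFCF, Ssbp1 (mtDNA single-strand binding protein, -0.38, adjusted p = 0.0309) and Tfb2m (-0.34, adjusted p = 0.0497). Over both diets 4 fell and 1 rose, and with diet 4 fell in WT and 8 in HuRHep-/- with none higher, beside 10.2%, 12.8% and 19.1% of all genes lower. Those in HuRHep-/- included Gabpa, a subunit of an ETS family factor, at -0.60 (adjusted p = 0.000581). Of 12 genes for mitochondrial content, Cs (citrate synthase) rose in chow by 0.41 (adjusted p = 0.0288) and Slc25a5 fell in HFCF by 0.31 (adjusted p = 0.0426). With diet 1 rose in WT and 5 fell in HuRHep-/-. The 13 mitochondrially encoded transcripts took between 10.4% and 12.9% of the counts of a library, with overlapping ranges in the 4 groups. In none of the 8 lists did a gene pass the test of the difference between diets in the genotype effect.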

How the data were processed

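Bulk RNA-seq was made from livers of 12 mice (RIN above 6.0, stranded library kit per the labels). Reads were mapped by the authors to GRCm38.p6 with CLC Genomics Workbench, and what they deposited are counts of reads for each gene, not normalized, in 2 tables of 20775 (chow) and 22709 (HFCF) genes. All deposited counts are whole, and the comma written inside larger values was removed here. Gene names that had been turned into dates (23 and 27) were restored by gene ID. Because such text was recorded as another kind of value than plain counts, the test was one for log values. CPM, RPKM and log2 values were computed here from the deposited counts, and positions and exon lengths come from GENCODE release 21 on GRCm38. Promoters come from RefSeq on GRCm38.p6, where all 10 members were matched by symbol.

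A gene entered a fit where 3 or more libraries reached what 10 counts are in the library of median size and the counts summed to 15 or more. This kept 13526 chow genes, 14295 HFCF genes and 14535 genes for the 12 libraries. TMM factors (trims 0.3 and 0.05) were rewritten and checked, a pseudocount of 0.5 counts was added before log2 CPM were taken, and limma 3.58.1 in R 4.3.3 was fitted with a variance trend and Benjamini-Hochberg adjustment. Genotype within a diet used the 6 libraries of that diet, and the pooled, diet and interaction comparisons used all 12 as 4 groups. The fits were tested on simulated data. Exact permutation tests were two-sided, and 3 livers against 3 cannot give a p under 0.1. Each library is taken as 1 mouse. Fold changes are on this log2 scale, which understates changes of genes with few counts.

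The members, gene lists and motifs were chosen with earlier results of these data known. Named besides the members were Elavl1, up to 3 genes with the smallest adjusted p per list and comparison, and the 3 genes nearest in profile to Mfn2 and to Dnm1l. Camp, Gm13719 and AC140267.1 were named after their values were seen. As alternatives, scaling by RLE or by the upper quartile was tried, then other filters, a pseudocount of 2, voom weights, the replicate number as a block, other sets of libraries in the fit, the DEG rule and leaving out each library. Library totals alone were added after seeing the data. The CLC test was not used here. A motif search of the 3′ untranslated regions of the 10 members is not reported here, because part of it could not be given.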

Additional observations from a re-analysis of the deposited data

How the results depend on the processing

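Over 12 libraries, the falls of Mief1 and Mief2 by genotype and the diet differences of Mfn1 and of Mfn2 in WT kept their direction under every alternative run, and their call under every one but the added fold change of 1.5, which with TMM factors only Mfn1 in HuRHep-/- passed and with upper-quartile factors or library totals Mfn2 in WT in its place. Without 1 library, members called by genotype ranged from 0 to 0 in chow, 0 to 3 in HFCF and 3 to 3 over both diets, by diet from 2 to 4 in WT and 4 to 6 in HuRHep-/-, and 0 to 0 for the interaction. In chow 1 member was called with upper-quartile factors (Mief1), with 10 counts in every library (Mief1) or in the fit on 12 libraries (Mief2), in HFCF 1 with library totals (Mief2), and by diet in WT 2 in the fit on 6 libraries. With the fold change of 1.5 added, 0 members passed in HFCF, over both diets and by diet in WT, and 1 by diet in HuRHep-/-.

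Deviations of same-numbered WT and HuRHep-/- livers correlated at -0.030, 0.11 and -0.0030 in chow and at 0.088, 0.19 and 0.086 in HFCF. Between the diets of 1 label the correlations ran from -0.14 to 0.10. The labels do not say that the numbers pair mice, so they were not taken to pair the samples. With the replicate number as a block, 0, 3, 3, 4, 6 and 0 members were called in chow, HFCF, over both diets, by diet in WT and HuRHep-/- and in the interaction, the addition in HFCF being Mief1 (adjusted p = 0.0290). All 6 HFCF libraries and 2 of 6 chow libraries correlated best with their own number, and the block called 340 and 1341 genes in chow and HFCF in place of 570 and 978.

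With library totals, log2 fold changes changed sign to 0.035, 0.035 and 0.033 for Dnm1l, Mff and Yme1l1 in chow, to 0.018 and 0.12 for Dnm1l and Mff in HFCF, and over both diets to 0.021 for Mfn1, 0.087 for Opa1, 0.027 for Dnm1l, 0.083 for Fis1, 0.079 for Mff and 0.011 for Yme1l1. By diet they changed to 0.18, 0.11, 0.054 and 0.081 for Opa1, Dnm1l, Fis1 and Yme1l1 in WT and to 0.10, 0.14 and 0.036 for Dnm1l, Mief2 and Yme1l1 in HuRHep-/-. Upper-quartile factors gave 0.024 for Mff in HFCF, and Opa1 by diet in WT became 0.0027 (RLE), 0.049 (upper quartile), 0.020 (10 counts in every library) and 0.0073 (6 libraries). Oma1 in the interaction became 0.021, 0.0073 and 0.040 with upper-quartile factors, 10 counts in every library and library totals. Without 1 library, the values near 0 ranged from -0.053 to 0.074 (Mfn1) and -0.0084 to 0.18 (Oma1) in chow, -0.051 to 0.014 (Mff) and -0.044 to 0.12 (Oma1) in HFCF, -0.070 to 0.0028 (Fis1) over both diets, -0.050 to 0.040 (Opa1) and -0.049 to 0.092 (Mief2) by diet in WT, -0.0062 to 0.091 (Fis1) by diet in HuRHep-/- and -0.12 to 0.087 (Oma1) in the interaction. Of these only Yme1l1 by diet in HuRHep-/- had been called, and Opa1 by diet in WT was called higher with library totals (adjusted p = 0.0388). The cause of these changes was not tested.

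Over all genes, the split of calls into higher and lower moved with library totals from 310 and 260 to 506 and 187 in chow, from 414 and 564 to 1093 and 252 in HFCF, from 1302 and 1484 to 2923 and 670 over both diets, from 1649 and 1865 to 3393 and 722 by diet in WT and from 2870 and 2780 to 5113 and 945 in HuRHep-/-. With upper-quartile factors it moved to 422 and 370 in HFCF, 1966 and 1485 by diet in WT and 3403 and 1951 in HuRHep-/-. The fit on 12 libraries called 961 and 1615 genes in chow and HFCF, that on 6 libraries 2060 by diet in WT. Leaving out 1 library gave as few as 9 in chow, 28 in HFCF, 1857 over both diets and 1990 by diet in WT, and up to 41 in the interaction.

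With the longest transcript as length, RPKM in chow WT livers became 11.8, 22.7, 9.85, 7.18, 75.3, 7.83, 5.93, 9.52 and 14.2 for Mfn1, Mfn2, Opa1, Dnm1l, Fis1, Mff, Mief1, Mief2 and Yme1l1, and the log2 ratios of Oma1 to Yme1l1 and Mief1 to Mief2 became -1.18 and -0.68 there. With library totals RPKM became 7.95, 7.04, 4.95, 2.84, 3.41, 7.997 and 7.56 for Mfn1, Opa1, Dnm1l, Mff, Mief1, Mief2 and Yme1l1.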
